A study of Mus musculus with 4 samples.

Results

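The Wnt signalling genes of the embryonic mouse heart that act outside the cell or at its surface were examined by cell type: the Wnt ligands, the Frizzled receptors, the Lrp5 and Lrp6 co-receptors, the secreted Sfrp and Dkk antagonists and the R-spondins, together with the pathway targets Axin2 and Lef1. Every row of the expression tables whose name began with Wnt, Fzd, Sfrp, Dkk or Rspo followed by a number was taken, plus Lrp5, Lrp6, Axin2 and Lef1. This rule found 42 genes among 30268: 16 Wnts, 10 Frizzleds, 4 Sfrps, 4 Dkks, 4 R-spondins and the 4 genes added by name. Over all kept cells, 31 of the 42 had at least 20 UMIs (unique molecular identifiers, each counting 1 captured transcript) and are described here. The other 11 had fewer: Wnt7a with 16, Wnt7b with 9, Wnt6 with 5, Wnt10b with 4, Wnt10a with 2, Wnt3 and Wnt8b with 1 each, Fzd6 with 6, Sfrp4 with 19, Dkk4 with 1 and Rspo4 with 2.

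The data were Drop-seq profiles, in which single cells are lysed in droplets beside barcoded beads, from embryonic mouse hearts at E13.5 and E14.5. Control hearts carried Wt1 CreERT2/+ and Rosa26mTmG/+, and knockout hearts carried Wt1 CreERT2/+, Lats1/2 F/F and Rosa26mTmG/+ (Lats1/2 CKO). Both genotypes thus carried the tamoxifen-inducible Cre at the Wt1 locus, which acts in cells that express Wt1, such as the epicardium. Both also carried the mTmG reporter, which switches on Egfp after Cre has acted, in the cell and its descendants. There was 1 library for each genotype and stage, so a genotype difference at 1 stage had no replicate, and the number of embryos behind a library is not given in the sources used here. Values for the 4 libraries are given throughout in 1 order: the control and then the Lats1/2 CKO library at E13.5, followed by the control and the Lats1/2 CKO library at E14.5. The libraries held 4471, 5915, 5504 and 5595 kept cells with a median of 1589, 2015, 955 and 1035 UMIs per cell, and each pair of libraries shared 2 to 4 cell barcodes.

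As background, Wnts are secreted, lipid-bearing proteins that bind a Frizzled receptor. With Lrp5 or Lrp6 beside it, the receptor stabilises beta-catenin, which acts with Lef1 and its relatives on targets such as Axin2, a feedback inhibitor. Other Wnts, Wnt5a and Wnt11 among them, are known mostly for branches that do not use beta-catenin and that orient or move cells. Sfrps bind Wnts outside the cell, Dkk1 and Dkk2 bind the Lrp co-receptors, and R-spondins raise Wnt sensitivity by keeping Frizzleds at the cell surface. In the developing heart the pathway is known for roles in the endocardial cushions from which the valves form, in the epicardium and in the growth of the myocardium.

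Cells were placed in 9 classes by the marker genes of each type, and no member gene took part in the gate. The classes were cardiomyocyte-like (7854 cells), valve mesenchyme-like (2757), endocardial-like (1737), fibroblast-like (1273), mural-like (822, pericytes and smooth muscle), valve endothelial-like (794), coronary endothelial-like (728), epicardial-like (608) and macrophage-like (451). Every marker of each class was detected in that class in all 4 libraries. Between 64.1% (mural-like) and 99.8% (macrophage-like) of a class also fell in the unsupervised cluster of the same name. The valve endothelial-like class also carried valve mesenchyme markers: its own markers summed to 2263, 2140.2, 2104 and 1864 counts per 1000000 UMIs (CPM), and those of valve mesenchyme to 3697, 2825, 3085 and 2356 CPM, against 9254 to 9650.4 CPM in the valve mesenchyme-like class itself. Fibroblast markers, a list that holds collagen genes, were also high outside the fibroblast-like class, where they summed to 18471 to 20530.1 CPM: they reached 19656 to 30623 CPM in the epicardial-like class, 10154 to 11040.4 in the valve mesenchyme-like class and 6951 to 8829 in the mural-like class. Those sums stood above the own-marker sum in each of these 3 classes in every library. The part of these shared markers in the levels of the members was not tested. All levels below are UMIs of a gene scaled in this way to all UMIs of its class in a library, and their mean and SD are over the 4 libraries, which differ in genotype and stage. Class sums ran from 102362 UMIs in a library (macrophage-like) to 6835383 (cardiomyocyte-like), which sets how low a level could be seen.

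The Wnts named below belong to several subfamilies, yet all carry 1 conserved stretch around the serine to which the lipid is attached. Their coding sequences over this stretch are shown because secretion and receptor binding of every ligand described here depend on it. Each runs 5′ to 3′ over 24 bases, with the serine codon in capitals, and comes from the GENCODE M21 transcripts (GRCm38).
Wnt4: tgtcacggggtgTCGggctcctgc
Wnt9b: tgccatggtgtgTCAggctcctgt
Wnt16: tgccacggagttTCCggctcctgt
Wnt9a: tgccatggtgtgTCTggctcctgc
Wnt5a: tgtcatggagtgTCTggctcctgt
Wnt2: tgtcatggtgtgAGTggctcctgt
The serine is codon 212 of 351 in Wnt4, 218 of 359 in Wnt9b, 226 of 364 in Wnt16, 221 of 365 in Wnt9a, 244 of 380 in Wnt5a and 212 of 360 in Wnt2. Among the 9 Wnts described, the 8 others differed from Wnt4 at 3 to 6 of the 24 bases, and Wnt2 and Wnt2b spell the serine with the AGT codon where the others use a TC codon. The Frizzleds share a short stretch just inside the cell membrane, known to bind Dishevelled, in which a lysine, a threonine and a tryptophan are conserved. It is shown over 18 bases for 4 receptors that led in different classes, with the codons of these 3 residues in capitals.
Fzd10: AAGACCctgcagtccTGG
Fzd4: AAAACTcttcacacgTGG
Fzd2: AAGACActgcactcgTGG
Fzd1: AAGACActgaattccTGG
These 4 receptors share the intracellular docking stretch, and the class with the highest mean level differed between them. For Fzd2 that lead was small, with means of 157 CPM in valve mesenchyme-like and 131 CPM in fibroblast-like cells. The test below did not tell these 2 classes apart. The stretch begins at codon 527 of 582 in Fzd10, 499 of 537 in Fzd4, 548 of 570 in Fzd2 and 620 of 642 in Fzd1.

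**Figure D1:**
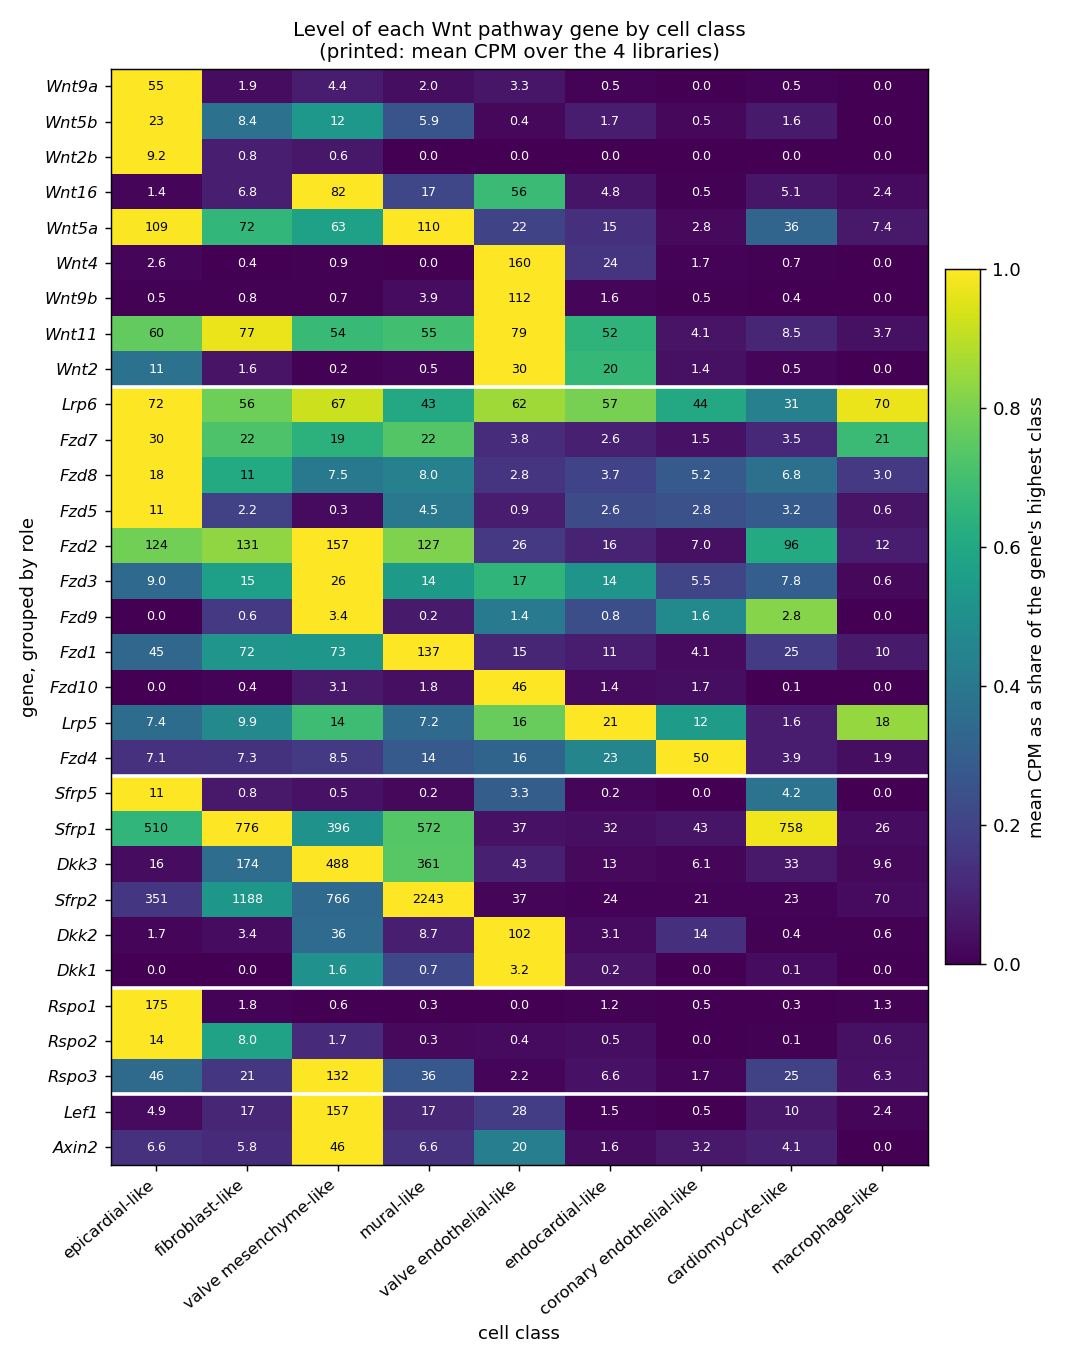
Heat map of the 31 members with at least 20 UMIs (rows, by role) in the 9 marker-gated classes (columns), each cell showing the mean CPM over the 4 libraries relative to the highest class of that gene. By this mean the epicardial-like class was highest for 10 members, the valve mesenchyme-like class for 8 and the valve endothelial-like class for 7, whereas the cardiomyocyte-like and macrophage-like classes were highest for none. These counts include members with few UMIs and small leads. The test described below told the leading class from the next for 13 of the 24 tested members, with the opposite sign for Sfrp1. Of those led by the epicardial-like class, this held for Rspo1 and Wnt9a only. For Sfrp1 the fibroblast-like and cardiomyocyte-like means were close, at 776 and 758 CPM, and no order between them is given.

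The first question was which cells made the ligands and which the receptors. For each class, edgeR's quasi-likelihood test compared the summed UMIs with the mean of the 8 other classes on the log scale. The library was a block, with Benjamini-Hochberg adjustment over all 11408 genes tested. The mean of the others below is this log mean, which classes near 0 pull down. A class can thus be called higher at a low level. Fzd10 was so called in valve mesenchyme-like cells at 3.13 CPM, with 46.0 CPM in valve endothelial-like cells. Of the 31 members, 24 passed the filter on low counts, and Dkk1, Fzd5, Fzd8, Fzd9, Rspo2, Sfrp5 and Wnt2b did not. A log2 value below is this difference unless stated otherwise, and called means an adjusted p below 0.05. The leading class of a gene was picked as its highest in these same data, so its test describes the size of the difference and does not choose between classes. Where a class held no UMI of a gene in any library, as for Wnt4, Wnt9b, Wnt9a, Fzd10 and Axin2 in the macrophage-like class, the fitted value also depends on edgeR's prior count. Nothing in the sources says how libraries relate to separate litters. These p-values measure only how class differences vary over these 4 libraries, with the library block taken out. That spread also holds any genotype and stage differences within a class.

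Among the ligands, the valve endothelial-like cells held most of the Wnt4 and Wnt9b messages. Wnt4, a ligand known for kidney and gonad formation (ENSMUSG00000036856, chr4:137277489-137299726, plus strand), stood at 189, 114, 214 and 123 CPM there, and the class held 257 of the 373 Wnt4 UMIs of the 9 classes (68.9%). Both control libraries were above both Lats1/2 CKO libraries. The endocardial-like cells, from which valve endothelium is continuous, followed with 36.6, 22.2, 26.9 and 9.87 CPM, and no library of the first class overlapped any of the second. Wnt4 was called higher in the valve endothelial-like class than in the mean of the others (log2 7.07 with SE 0.25, adjusted p 4.29e-29) and than in the endocardial-like class (log2 2.56 with SE 0.24, adjusted p 2.32e-12). After each cell was thinned to 500 UMIs (95% Clopper-Pearson intervals in brackets, for counting error only), 5.71% (3.16 to 9.40), 4.05% (1.96 to 7.32), 9.20% (5.24 to 14.7) and 5.76% (2.52 to 11.03) of valve endothelial-like cells had a Wnt4 UMI, and 0%, 0.0576%, 0.138% and 0% of cardiomyocyte-like cells did (in the 2 libraries without one, 3 counts of the total, the floor used for a count of 0, are 0.197% and 0.124%). Without thinning the shares were 20%, 14.98%, 16.6% and 12.2% and 0.0656%, 0.173%, 0.184% and 0.0824%.

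Wnt9b, a ligand known for kidney and craniofacial development (ENSMUSG00000018486, chr11:103727364-103749821, minus strand), stood at 95.3, 119, 171 and 61.4 CPM in the valve endothelial-like class. That class held 183 of 209 UMIs (87.6%), and its lowest library was still above every library of the next class, mural-like, with a mean of 3.87 CPM. It was called higher than in the mean of the others (log2 7.15 with SE 0.30, adjusted p 4.69e-27) and than in the mural-like class (log2 6.0 with SE 0.52, adjusted p 5.35e-14). Wnt9b and Wnt4 had the largest log2 differences of the 4 ligands with their highest mean level in this class. Neither had taken part in the gate. Their levels stood in a class that also carried valve mesenchyme markers at 2356 to 3697 CPM. The valve mesenchyme-like class, with the full level of those markers, held Wnt4 at 0.906 ± 1.14 CPM and Wnt9b at 0.743 ± 0.797 CPM.

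Wnt2 and Wnt16 were shared between neighbouring valve and endocardial classes. Wnt2, a ligand known for lung and early heart development, stood at 28.8, 36.3, 19.4 and 35.1 CPM in the valve endothelial-like class and at 10.6, 20.2, 37.03 and 11.8 CPM in the endocardial-like class. The libraries of the 2 classes overlapped and the difference was not called (log2 0.73 with SE 0.41, adjusted p 0.322). Wnt16, known in bone (ENSMUSG00000029671, chr6:22288227-22298522, plus strand), was highest in the valve mesenchyme-like class at 111, 70.3, 82.2 and 63.4 CPM (log2 4.24 with SE 0.25, adjusted p 1.65e-21). The valve endothelial-like class had 79.1, 34.7, 73.9 and 35.1 CPM of Wnt16, overlapping it, and the difference missed the threshold (log2 0.62 with SE 0.27, adjusted p 0.0834). Valve mesenchyme markers were present in that class, as given above, and their part in its Wnt16 level was not tested.

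The epicardial-like cells had the highest mean levels of Wnt9a, Wnt5b and Wnt2b, and of these only Wnt9a was called above the next class. Wnt9a (ENSMUSG00000000126, chr11:59306928-59333552, plus strand), a ligand known in joint and blood stem cell formation, stood at 59.9, 54.2, 51.2 and 53.1 CPM, with the smallest SD of the 9 ligands in their leading classes. The class held 98 of 152 UMIs (64.5%) from 608 cells, and the next class, valve mesenchyme-like, had a mean of 4.42 CPM (log2 of the difference 3.66 with SE 0.46, adjusted p 3.56e-09). Wnt5b, a close relative of Wnt5a, stood at 27.5, 11.4, 39.8 and 11.8 CPM there (log2 3.51 with SE 0.51, adjusted p 1.05e-07), and its excess over the valve mesenchyme-like class was not called (log2 0.79 with SE 0.44, adjusted p 0.177). In both stages the control library was the higher for Wnt5b. Wnt2b was seen in only 23 UMIs among all kept cells, of which 18 were epicardial-like, with 4.99, 18.5, 11.4 and 1.97 CPM. It was not tested.

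Wnt5a and Wnt11, which act mostly outside the beta-catenin branch, were spread over many classes. Wnt5a (ENSMUSG00000021994, chr14:28504750-28527448, plus strand) stood at 126, 128, 94.5 and 89.1 CPM in the mural-like class and at 87.4, 97.01, 131 and 120.01 CPM in the epicardial-like class. The 2 sets overlapped, and the difference was not called (log2 0.20 with SE 0.16, adjusted p 0.424). With cluster-based classes the mural-like mean of Wnt5a was 188 CPM, against 109.5 with the gate, and with the stricter gate the mural-like class no longer led. Fibroblast-like cells followed with 72.5 ± 13.1 CPM, valve mesenchyme-like cells with 62.6 ± 7.34 and cardiomyocyte-like cells with 35.6 ± 3.44. Wnt11 stood at 89.9, 94.1, 58.3 and 74.6 CPM in the valve endothelial-like class and at 107, 93.6, 26.8 and 80.03 CPM in the fibroblast-like class, a difference that was not called (log2 -0.05 with SE 0.20, adjusted p 0.887). It was called higher than the mean of the others in 6 of the 9 classes, so no single source stood out, and the endocardial-like class still had 51.5 ± 22.7 CPM.

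**Figure D2:**
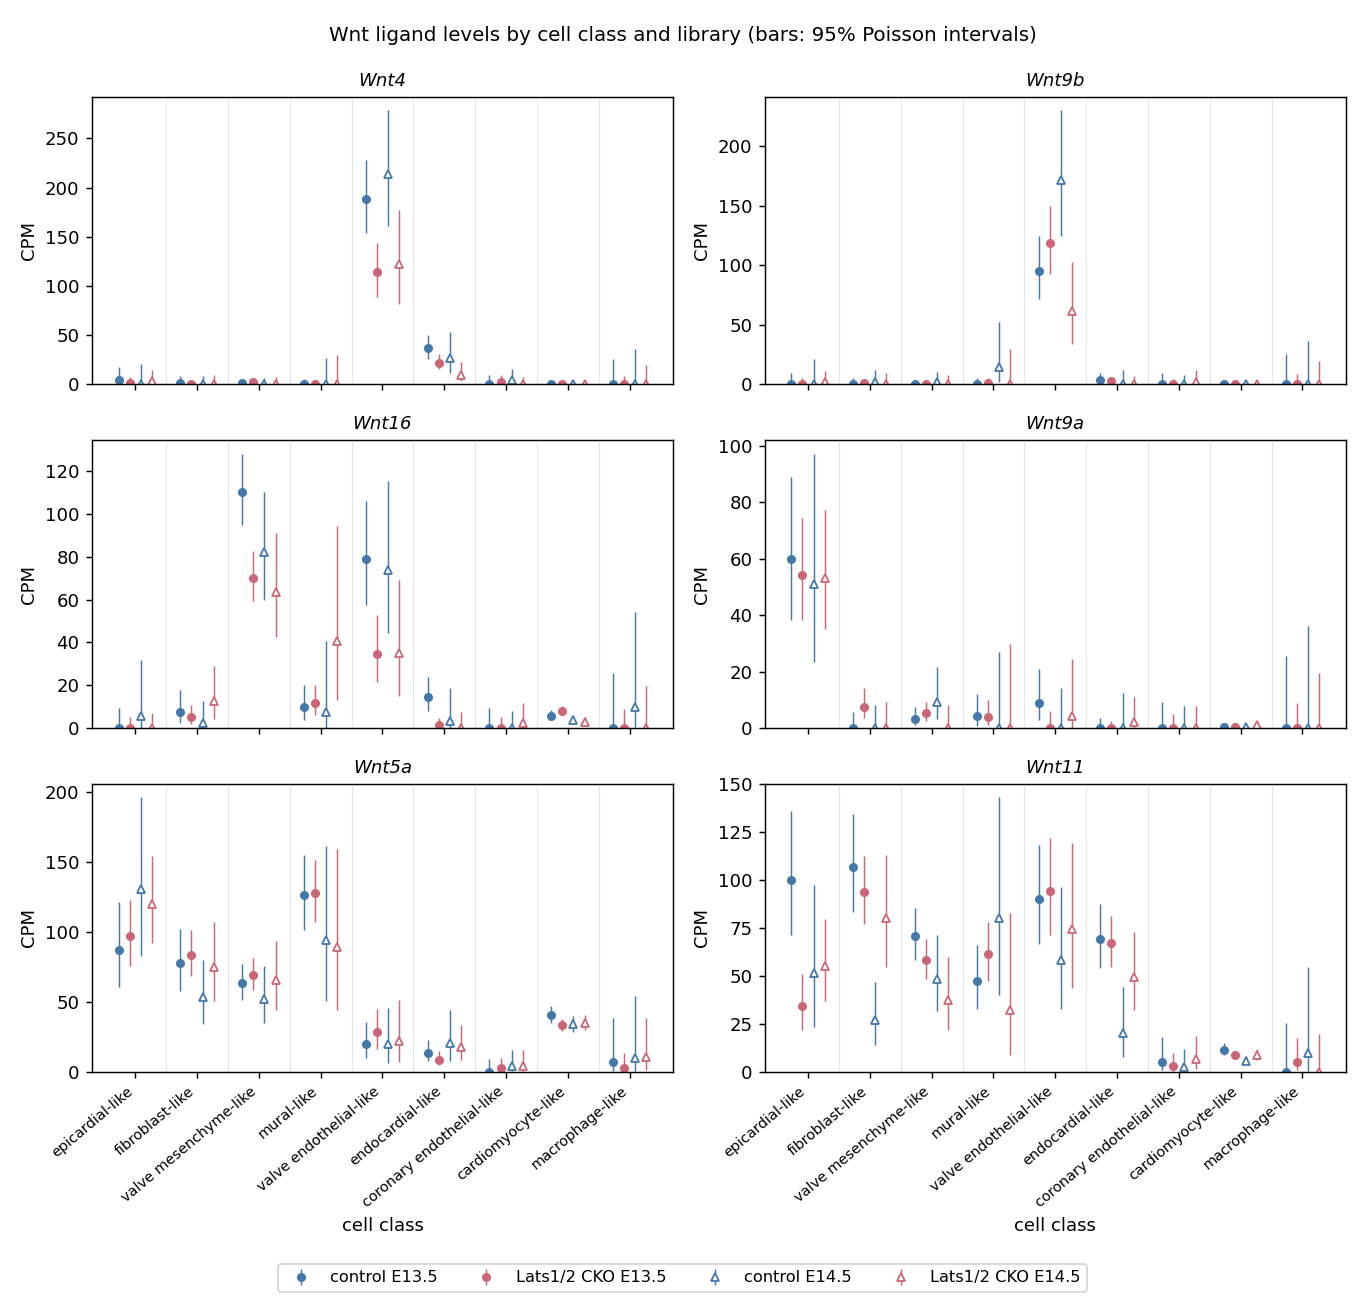
CPM of 6 Wnt ligands (panels) in the 9 classes (horizontal axis), 1 symbol per library: blue for control, red for Lats1/2 CKO, filled circles for E13.5 and open triangles for E14.5. Wnt4 and Wnt9b are high in the valve endothelial-like class in all 4 libraries, Wnt9a in the epicardial-like class and Wnt16 in both valve classes, whereas Wnt5a and Wnt11 are spread over several classes.

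Among the receptors, Fzd10 and Fzd4 each led in 1 endothelial class. Fzd10 (ENSMUSG00000081683, chr5:128600844-128604093, plus strand) stood at 41.3, 41.3, 66.1 and 35.1 CPM in the valve endothelial-like class (log2 6.14 with SE 0.40, adjusted p 3.24e-18), where 73 of its 99 UMIs lay, and its next class, valve mesenchyme-like, had a mean of 3.13 CPM (log2 of the difference 3.88 with SE 0.44, adjusted p 2.06e-10). Fzd4 (ENSMUSG00000049791, chr7:89404355-89413134, plus strand), the receptor known to take the ligand norrin in growing vessels, was highest in coronary endothelial-like cells at 42.9, 58.3, 38.3 and 59.4 CPM (log2 2.53 with SE 0.22, adjusted p 9.48e-15). Endocardial-like cells had 22.5 ± 6.02 CPM of Fzd4, called lower than the coronary class (log2 of coronary against endocardial 1.13 with SE 0.25, adjusted p 0.000311). By mean level the valve endothelial-like class was thus highest for the receptor Fzd10 and for 4 ligands, Wnt4, Wnt9b, Wnt2 and Wnt11. For Wnt2 and Wnt11 it was not called apart from the next class. With a stricter gate its mean Fzd10 level was 28.8 CPM.

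Fzd1 and Fzd2, close paralogs, had the most UMIs of the Frizzleds. Fzd2 stood at 162, 152, 159 and 158 CPM in the valve mesenchyme-like class (log2 1.90 with SE 0.13, adjusted p 1.98e-19), with means of 131 CPM in fibroblast-like, 127 in mural-like, 124 in epicardial-like and 96.1 in cardiomyocyte-like cells. The valve mesenchyme-like and fibroblast-like classes were not called apart (log2 0.21 with SE 0.14, adjusted p 0.352). Fzd1 was highest in the mural-like class at 208, 118, 94.5 and 129.5 CPM (log2 2.77 with SE 0.15, adjusted p 3.4e-22), above the valve mesenchyme-like class with 72.9 ± 25.8 CPM (log2 0.95 with SE 0.15, adjusted p 1.74e-06). Control E13.5 was the highest mural-like library for Fzd1 by a wide margin, and the other 3 lay at or below 137 CPM, the mean of all 4.

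Fzd7 and Fzd3 stood lower. Fzd7 had 49.9, 34.2, 22.8 and 13.8 CPM in the epicardial-like class (log2 1.93 with SE 0.30, adjusted p 4.08e-07), not called apart from the mural-like class (log2 0.33 with SE 0.35, adjusted p 0.542). Fzd3, known for axon guidance and cell polarity, had 34.1, 25.5, 14.9 and 30.6 CPM in the valve mesenchyme-like class (log2 1.51 with SE 0.23, adjusted p 1.63e-07), not called apart from the valve endothelial-like class (log2 0.70 with SE 0.32, adjusted p 0.109). The 3 Frizzleds left untested by the count filter were Fzd8 with 32.5, 15.7, 5.69 and 19.7 CPM and Fzd5 with 7.49, 18.5, 17.1 and 1.97 CPM in epicardial-like cells, and Fzd9 with 3.16, 4.72, 5.61 and 0 CPM in valve mesenchyme-like cells. These low values rest on few UMIs, and no order of classes is read from them.

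The co-receptors Lrp5 and Lrp6 had no class far above the next. Lrp6 stood at 82.4, 77.04, 79.7 and 49.2 CPM in the epicardial-like class and 69.8 ± 30.1 in the macrophage-like class, which were not called apart (log2 0.07 with SE 0.26, adjusted p 0.86), and at 31.3 ± 3.46 in cardiomyocyte-like cells, the lowest class. Its excess in the epicardial-like class over the mean of the others was small (log2 0.46 with SE 0.16, adjusted p 0.0237) and lost its call without the low-count filter (adjusted p 0.0664), with a stricter gate (adjusted p 0.0675), without the control E13.5 library (adjusted p 0.168) and without the Lats1/2 CKO E13.5 library (adjusted p 0.241). Lrp5 was highest in endocardial-like cells at 14.45, 21.5, 30.3 and 17.8 CPM (log2 1.20 with SE 0.27, adjusted p 0.000208), not called apart from the macrophage-like class (log2 0.16 with SE 0.45, adjusted p 0.818), and cardiomyocyte-like cells had 1.64 ± 0.994 CPM. Cardiomyocyte-like cells were thus lowest for both co-receptors.

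Of all members, the secreted antagonists Sfrp1, Sfrp2 and Dkk3 had the most UMIs. Sfrp2 (ENSMUSG00000027996, chr3:83766321-83774316, plus strand) reached 2580.4, 3003, 1178 and 2210.3 CPM in the mural-like class (log2 4.55 with SE 0.13, adjusted p 6.15e-36). The mean of 2243 CPM became 3589 with cluster-based classes. Fibroblast-like cells followed with 1394, 1629, 722 and 1005 CPM, called lower than the mural-like class (log2 of mural against fibroblast 0.93 with SE 0.16, adjusted p 1.79e-05), then valve mesenchyme-like cells with 766 ± 247 and epicardial-like cells with 351 ± 176 CPM. Thinned to 500 UMIs, 61.5% (55.6 to 67.1), 62.5% (57.2 to 67.6), 41.2% (31.3 to 51.7) and 50.6% (39.5 to 61.6) of mural-like cells had an Sfrp2 UMI, against 0%, 1.34%, 3.03% and 0.735% of macrophage-like cells (for 0 of 67 cells the floor of 3 counts is 4.48%). Without thinning the shares were 80.2%, 84.4%, 50.5% and 56.5% in mural-like and 1.49%, 3.36%, 5.05% and 4.41% in macrophage-like cells. Sfrp2 was also among the leading genes of the unsupervised mural cluster, although it was left out of the clustering.

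Sfrp1 (ENSMUSG00000031548, chr8:23411502-23449632, plus strand) stood at 1008, 679, 791 and 625 CPM in fibroblast-like cells and 748, 629, 853 and 804 CPM in cardiomyocyte-like cells, with overlapping libraries. The fitted difference between the 2 classes had the opposite sign to these means (fibroblast against cardiomyocyte, log2 -0.33 with SE 0.12, adjusted p 0.0184). As edgeR's scaling factors between classes enter the fit and not the CPM, no order between the 2 classes is given. Both were high against the mean of the others, by log2 2.55 in fibroblast-like cells and 2.92 in cardiomyocyte-like cells. Means of 572, 510.1 and 396 CPM followed in the mural-like, epicardial-like and valve mesenchyme-like classes. Sfrp1 was the member that cardiomyocyte-like cells held most of.

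The Dkk genes were highest in the valve classes. Dkk2 stood at 106, 106, 105 and 92.1 CPM in valve endothelial-like cells (log2 4.57 with SE 0.24, adjusted p 2.7e-23), above valve mesenchyme-like cells with 35.9 ± 12.4 CPM (log2 1.56 with SE 0.24, adjusted p 3.95e-07), and its 4 libraries were nearly level. Dkk3, a divergent relative of the other Dkks, stood at 448, 606, 342 and 554 CPM in valve mesenchyme-like cells (log2 3.85 with SE 0.10, adjusted p 2.43e-37) and at 401, 536, 182 and 324 CPM in mural-like cells. These 2 classes overlapped and were not called apart (log2 0.26 with SE 0.12, adjusted p 0.154). Dkk1, the best known Lrp antagonist, had 24 UMIs in all, of which 12 lay in valve mesenchyme-like and 5 in valve endothelial-like cells, and Sfrp5 had 11.1 ± 6.43 CPM in epicardial-like cells.

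**Figure D3:**
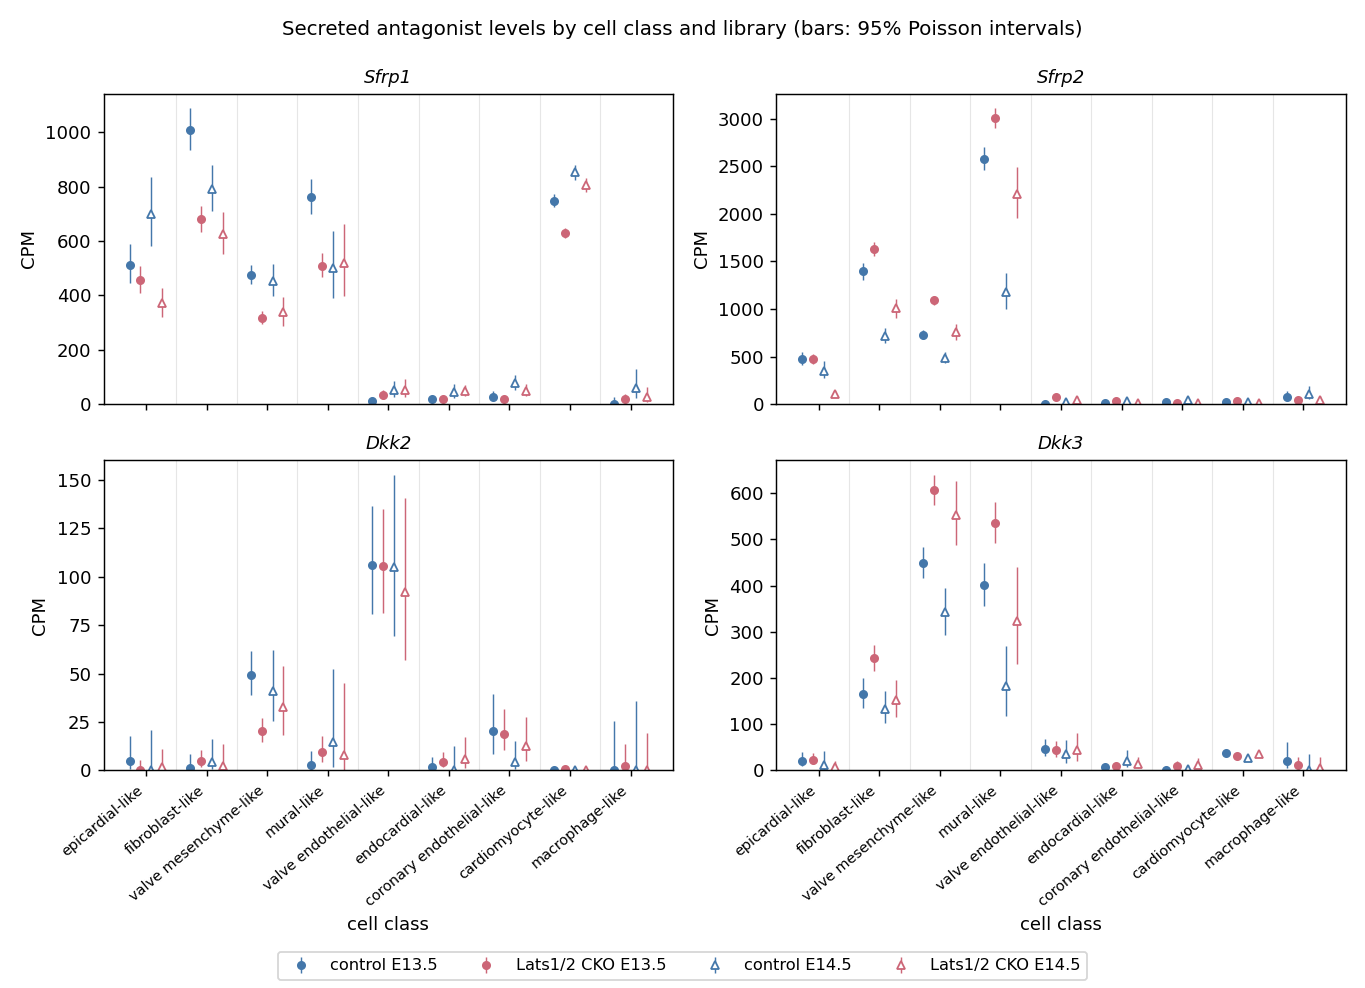
CPM of Sfrp1, Sfrp2, Dkk2 and Dkk3 (panels) in the 9 classes, 1 symbol per library (blue control, red Lats1/2 CKO, filled circles E13.5, open triangles E14.5). Sfrp2 is highest in the mural-like class, Sfrp1 in the fibroblast-like and cardiomyocyte-like classes, Dkk2 in the valve endothelial-like class and Dkk3 in the valve mesenchyme-like and mural-like classes.

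The R-spondins divided between epicardium and valve mesenchyme. Rspo1 (ENSMUSG00000028871, chr4:124986430-125009099, plus strand), known for ovary determination, stood at 179.8, 118, 222 and 179 CPM in the epicardial-like class, which held 285 of 303 UMIs (94.1%). Fibroblast-like cells came next with a mean of 1.81 CPM (log2 of the difference 6.37 with SE 0.39, adjusted p 2.04e-19), and against the mean of the others the difference was log2 7.96 with SE 0.26, adjusted p 2.29e-32. Rspo1 was therefore the member most restricted to 1 class by its share of UMIs. After thinning to 500 UMIs, 7.83% (3.64 to 14.3), 6.53% (3.52 to 10.9), 8.14% (3.34 to 16.1) and 10.1% (6.36 to 15.02) of epicardial-like cells had an Rspo1 UMI, and without thinning 30.4%, 26.6%, 26.7% and 28.4%. Of cardiomyocyte-like cells, 0 of 1524 and 0 of 1735 had one at E13.5 after thinning, for which the floor of 3 counts is 0.197% and 0.173%, and 0.0922% and 0.0412% did at E14.5. Median depths were 1060 to 2453 UMIs in epicardial-like and 1238 to 3023 in cardiomyocyte-like cells.

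Rspo3, known for vessel and coronary growth, was instead highest in valve mesenchyme-like cells at 131, 119.9, 146 and 129 CPM (log2 3.55 with SE 0.15, adjusted p 9.19e-28), with little spread between libraries. The epicardial-like class had 45.7 ± 9.75 CPM of Rspo3, called lower (log2 of valve mesenchyme against epicardial 1.29 with SE 0.19, adjusted p 1.76e-07). Rspo2 was rare, with 13.8 ± 9.22 CPM in epicardial-like and 7.98 ± 2.72 CPM in fibroblast-like cells. In epicardial-like cells Rspo2 stood at 27.5, 8.56, 11.4 and 7.87 CPM, highest in the control E13.5 library.

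Lef1 and Axin2, read as targets of the beta-catenin branch, both peaked in valve mesenchyme-like cells. Lef1 (ENSMUSG00000027985, chr3:131110471-131224356, plus strand), a DNA-binding partner of beta-catenin, stood at 157, 145, 151 and 175 CPM (log2 4.89 with SE 0.17, adjusted p 2.32e-32), and 717 of 1058 UMIs lay there. Valve endothelial-like cells followed with 28.4 ± 4.64 CPM (log2 of the difference 2.39 with SE 0.23, adjusted p 2.79e-13). Lef1 was also called higher than the mean of the others in mural-like cells (log2 1.55 with SE 0.36, adjusted p 0.000817). The same held in cardiomyocyte-like cells (log2 0.87 with SE 0.26, adjusted p 0.00226), at 8.46, 9.51, 11.4 and 11.1 CPM. That call is against the log mean, which classes near 0 pull down, such as coronary endothelial-like cells with 0, 0, 0 and 2.12 CPM. It does not place cardiomyocyte-like cells above valve endothelial-like cells, which had 28.4 ± 4.64 CPM. As for Sfrp1, edgeR's scaling factors between classes also enter the log2 value and not the CPM. Axin2 (ENSMUSG00000000142, chr11:108920349-108950783, plus strand) stood at 46.1, 43.9, 57.9 and 37.2 CPM in valve mesenchyme-like cells (log2 3.70 with SE 0.26, adjusted p 1.59e-17) and 19.8 ± 6.49 in valve endothelial-like cells (log2 of the difference 1.38 with SE 0.33, adjusted p 0.00094). In every library the valve mesenchyme-like class was the highest for both genes. Thinned to 500 UMIs, 7.88% (6.17 to 9.88), 6.05% (4.67 to 7.69), 8.21% (5.90 to 11.1) and 7.09% (4.76 to 10.1) of valve mesenchyme-like cells had a Lef1 UMI, against 0.394%, 0.403%, 0.369% and 0.618% of cardiomyocyte-like cells, and without thinning the shares were 19.5%, 19.3%, 14.1% and 13.9% and 2.36%, 2.997%, 1.80% and 1.90%.

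**Figure D4:**
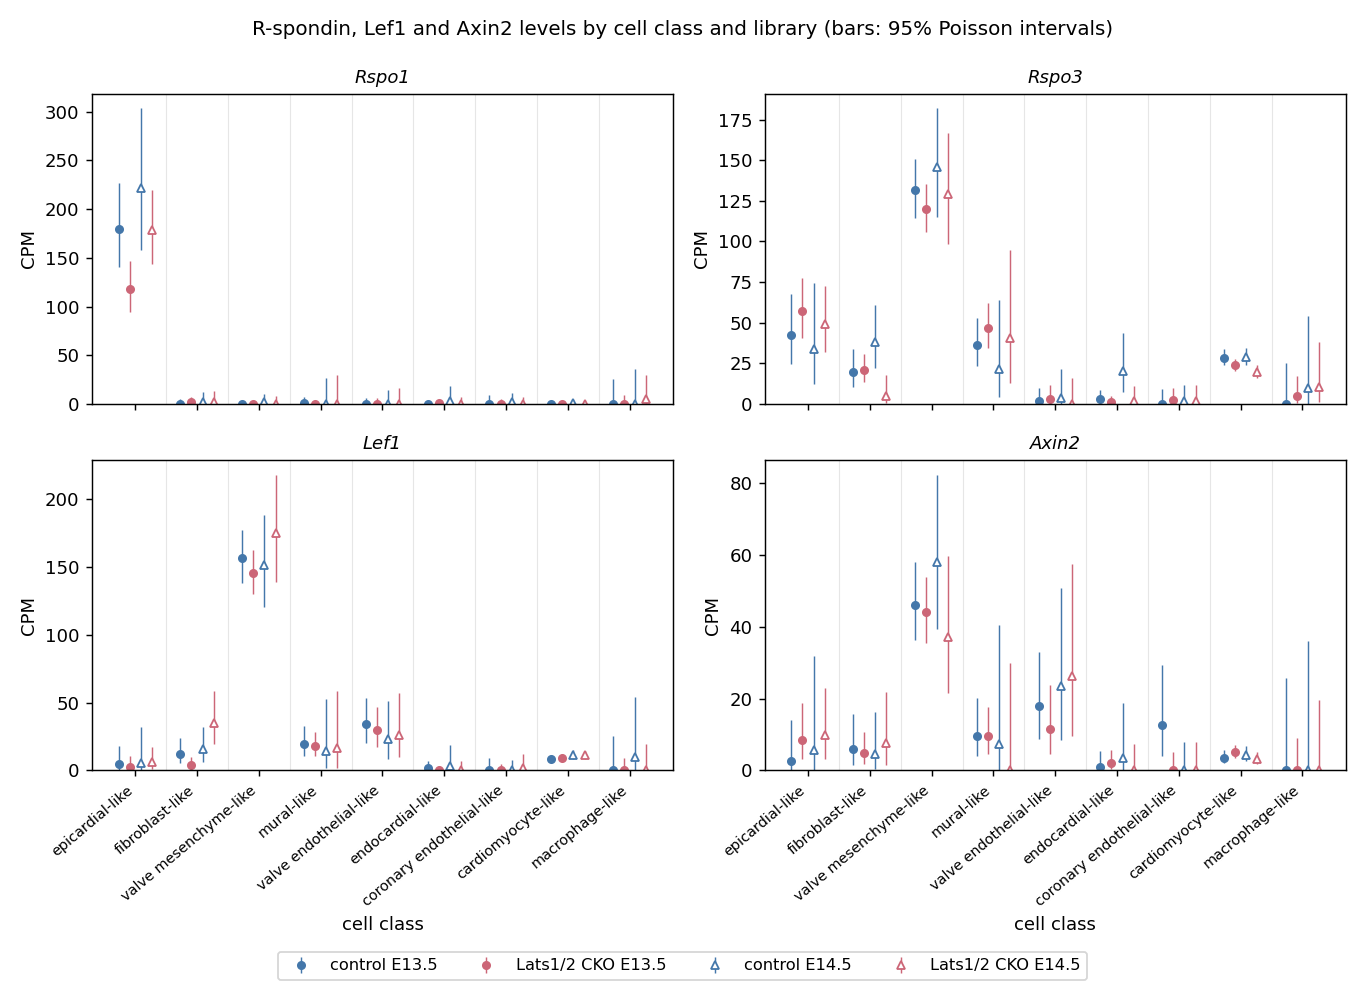
CPM of Rspo1, Rspo3, Lef1 and Axin2 (panels) in the 9 classes, 1 symbol per library (blue control, red Lats1/2 CKO, filled circles E13.5, open triangles E14.5). Rspo1 is high only in the epicardial-like class among the 9, with 4 libraries between 118 and 222 CPM, while Rspo3, Lef1 and Axin2 are highest in the valve mesenchyme-like class.

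Counted by class, the valve mesenchyme-like cells had the most members called higher, 18 of 24 with 0 lower, against 22% of all genes called higher and 16.7% lower. Their median log2 was 1.61 for the members and -0.01 for all genes. The epicardial-like class had 13 higher and 2 lower (all genes 20.1% and 14.6%, members' median 0.91). The mural-like class had 12 higher and 0 lower (14% and 8.46%, median 1.15), and the fibroblast-like class 9 higher and 0 lower (16.1% and 9.13%, median 0.72). In these 4 mesenchymal and epicardial classes the members' share called higher stood above that of all genes.

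The valve endothelial-like class had 9 higher and 6 lower (all genes 15.4% and 10.1%, members' median 0.57), unlike the other 2 endothelial classes. The endocardial-like class had 5 higher and 9 lower (19.9% and 18.1%, median -1.03), and the coronary endothelial-like class 2 higher and 12 lower (22.3% and 16.9%, median -2.14). The macrophage-like class had 1 higher and 11 lower (18.5% and 21.4%, median -2.45). The cardiomyocyte-like class had 6 higher and 7 lower (36.2% and 29.8%, median -0.79). Of the 24, its share called higher was below that of all genes, and its share called lower was near it.

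Other genes of the pathway were read from fixed lists, which were chosen with earlier results of these data known. For Wnt secretion, Wls, which carries Wnts to the cell surface, was highest in epicardial-like cells at 333 ± 37.7 CPM (log2 0.84 with SE 0.10, adjusted p 5.44e-10) and low in coronary endothelial-like cells at 64.2 ± 11.7 CPM (log2 -1.88 with SE 0.14, adjusted p 7.8e-17). Of 11 canonical targets besides Axin2 and Lef1, 7 were tested. In valve mesenchyme-like cells 6 of these were called higher and 0 lower, with a median log2 of 2.35, against 22% and 16.7% of all genes. The 6 were Notum, which removes the lipid from Wnts (55.9 ± 18.1 CPM, log2 5.58), the Dishevelled inhibitors Nkd1 (84.9 ± 28.04 CPM, log2 2.38) and Nkd2 (log2 3.02), Dact1 and Dact3 (log2 1.99 and 2.35) and the cell-cycle gene Ccnd1 (log2 0.96). In valve endothelial-like cells 2 of the 7 were higher, Notum (log2 3.05) and Nkd1 (log2 2.55), and Ccnd1 was lower (log2 -1.64). Of all genes, 15.4% were called higher and 10.1% lower in that class. Valve mesenchyme, the leading class of Lef1 and Axin2, thus also held called excesses of most of the tested targets on the list.

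Of 13 other co-receptors and receptor turnover genes, 8 were tested. In epicardial-like cells 6 were higher and 0 lower, against 20.1% and 14.6% of all genes. In cardiomyocyte-like cells 6 were higher and 1 lower, against 36.2% and 29.8% of all genes. The epicardial-like cells led for the glypican Gpc3 (3101 ± 604 CPM, log2 3.93) and had called excesses of the Wnt receptors Ror1 (log2 2.25) and Ryk (124 ± 52.9 CPM, log2 1.79). Cardiomyocyte-like cells had called excesses of Ror2, a Wnt5a receptor (log2 3.30), Lgr4, an R-spondin receptor (log2 2.13), and Kremen1, a Dkk receptor (log2 2.06). The scaling factors between classes and the log mean of the other classes enter these log2 values too. Macrophage-like cells had 0 higher and 5 lower, against 18.5% and 21.4% of all genes. Of 9 other secreted antagonists, 4 were tested: Sost, known from bone, was highest in mural-like cells (98.6 ± 85.4 CPM, log2 4.54), Igfbp4 was higher in endocardial-like cells (1175 ± 208 CPM, log2 2.11), and Frzb was higher in fibroblast-like, mural-like and valve mesenchyme-like cells (log2 3.21, 3.12 and 3.10). Of 9 planar polarity and calcium branch genes, 7 were tested. In valve mesenchyme-like cells 6 were higher, led by the transcription factor Nfatc4 (61.6 ± 14.1 CPM, log2 3.74), and 0 lower, against 22% and 16.7% of all genes. In macrophage-like cells 0 were higher and 6 lower, against 18.5% and 21.4% of all genes. Of 13 cytoplasmic transducers, 12 were tested, with 4 higher and 1 lower in valve mesenchyme-like cells (median log2 0.19). Of 10 nuclear factors, 9 were tested, with 4 higher and 1 lower there (median log2 0.45). Both counts stand against 22% of all genes called higher and 16.7% called lower in that class.

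The second question was how these genes differed in each class between control hearts and hearts with Lats1 and Lats2, kinases of the Hippo pathway, targeted. The labels were checked on the targeted genes in the epicardial-like cells, where Lats2 stood at 59.9, 32.8, 85.4 and 51.2 CPM and Lats1 at 27.5, 15.7, 45.5 and 19.7 CPM, lower in the Lats1/2 CKO library at both stages. These rest on 8 to 26 UMIs, and the 95% counting interval of each log2 ratio held 0: -1.76 to 0.02 and -1.71 to 0.28 for Lats2, -2.15 to 0.54 and -2.70 to 0.33 for Lats1. The reporter Egfp stood at 82.4, 663, 39.8 and 590.2 CPM there (edgeR, genotype effect with stage in the fit, log2 3.30 with SE 0.29, adjusted p 0.000171). The Cre message itself, Creert2, stood at 37.5, 95.6, 5.69 and 55.1 CPM there, with log2 ratios of 1.31 at E13.5 (interval 0.53 to 2.27) and 2.72 at E14.5 (interval 0.68 to 8.63), and edgeR gave log2 1.73 with SE 0.49, adjusted p 0.302. Reporter and Cre messages were thus higher in the Lats1/2 CKO epicardial-like cells although the labels give both genotypes the same 2 alleles, and their part in the genotype ratios below was not tested. The genotype effect on each member was tested in the same way in each class and in the pooled epicardial-like and fibroblast-like cells, with the 2 stages standing in as replicates and 1 residual degree of freedom.

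No member passed: 0 of 115 member and class tests reached an adjusted p below 0.05 (edgeR, lowest 0.543), against 0.0784% of all gene and class tests. At an unadjusted p below 0.05 there were 15 (5 higher and 10 lower in the Lats1/2 CKO), or 13.04% against 5.11% over all gene and class tests, and DESeq2 gave 0 at an adjusted p below 0.05 and 3 at an unadjusted p below 0.05. With no replicate at a stage, the ratio of the 2 libraries of a stage is given with its 95% exact counting interval, which covers counting error only. Of the 151 member and class pairs with at least 20 UMIs in the class, 12 left out 0 on the same side at both stages, against 2.86% of all gene and class pairs. Intervals narrow as UMIs rise, so genes with many UMIs meet this rule more readily. Most of the 12 pairs are of Sfrp1, Sfrp2 and Dkk3, with 24506, 18037 and 5698 UMIs in all kept cells. The 2.86% and the shares per class below are not matched for UMIs, so no excess of members is read from them. Of the 12, 11 were in single classes and the other was in the pool, whose cells are also counted in their own classes. In 4 other pairs the 2 stages left out 0 on opposite sides, against 2.41% of all pairs, a share near the background.

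Wnt4 was lower in the Lats1/2 CKO valve endothelial-like cells at both stages, from the levels given above. The log2 ratio was -0.73 at E13.5 (interval -1.19 to -0.28) and -0.79 at E14.5 (interval -1.51 to -0.12), from 105, 69, 55 and 28 UMIs (edgeR log2 -0.74 with SE 0.25, adjusted p 0.724). In this class 1 of 19 members met the interval rule in this direction, against 0.88% of all genes. Wnt16 in the same class was 79.1, 34.7, 73.9 and 35.1 CPM, also lower in both Lats1/2 CKO libraries (log2 -1.13 with SE 0.37, adjusted p 0.724), with an unadjusted p of 0.0109. In valve mesenchyme-like cells the edgeR estimates were below 0 for Wnt16 (log2 -0.54 with SE 0.22, adjusted p 0.9998) and Dkk2 (log2 -0.91 with SE 0.35, adjusted p 0.9998). Valve mesenchyme markers in the valve endothelial-like class stood at 3697, 2825, 3085 and 2356 CPM. They were lower in each Lats1/2 CKO library too, and their part in the Wnt4 and Wnt16 ratios of that class was not tested.

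Among the antagonists, Sfrp1 was lower and Sfrp2 and Dkk3 were higher in several Lats1/2 CKO classes by the counting intervals. In fibroblast-like cells, where 1.24% of all genes met the interval rule downward, Sfrp1 ratios were -0.57 at E13.5 (interval -0.72 to -0.42) and -0.34 at E14.5 (interval -0.58 to -0.10). For these edgeR gave log2 -0.44 with SE 0.20, adjusted p 0.854. In valve mesenchyme-like cells, where 1.1% of all genes met the rule downward, Sfrp1 stood at 475, 317, 454 and 337 CPM, with ratios of -0.58 at E13.5 (interval -0.74 to -0.43) and -0.43 at E14.5 (interval -0.73 to -0.13). In the pooled epicardial-like and fibroblast-like cells, where 2.03% of all genes met it, the ratios were -0.46 at E13.5 (interval -0.59 to -0.33) and -0.66 at E14.5 (interval -0.85 to -0.47). Epicardial-like cells made up 29.0%, 31.6%, 22.5% and 44.0% of that pool. In cardiomyocyte-like cells, where 4.14% of all genes met it, the ratios were nearer to 0, -0.25 at E13.5 (interval -0.31 to -0.19) and -0.08 at E14.5 (interval -0.15 to -0.02). All 4 lay in the same direction at both stages, and none passed the adjusted test. The pool holds the fibroblast-like cells already given, so the 4 are not separate observations.

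Sfrp2 ratios were 0.58 at E13.5 (interval 0.47 to 0.68) and 0.62 at E14.5 (interval 0.39 to 0.86) in valve mesenchyme-like cells (edgeR log2 0.61 with SE 0.17, adjusted p 0.882), where 1.01% of all genes met the rule upward. In fibroblast-like cells, where 1.5% of all genes met it, they were 0.22 at E13.5 (interval 0.11 to 0.34) and 0.48 at E14.5 (interval 0.26 to 0.69). In mural-like cells, where 0.605% of all genes met it, they were 0.22 at E13.5 (interval 0.14 to 0.30) and 0.91 at E14.5 (interval 0.62 to 1.20). In epicardial-like cells Sfrp2 stood at 474, 475, 353 and 102 CPM, level between genotypes at E13.5 and lower in the Lats1/2 CKO library at E14.5. The edgeR estimate for Sfrp2 was also below 0 in coronary endothelial-like cells (log2 -1.64 with SE 0.69, adjusted p 0.942). The same held in macrophage-like cells (log2 -0.90 with SE 0.48, adjusted p 0.931). In valve endothelial-like cells Sfrp2 stood at 1.80, 75.9, 27.2 and 43.9 CPM, with the control E13.5 library far below the other 3 (edgeR log2 2.60 with SE 0.73, adjusted p 0.543, unadjusted p 0.0042). That test passed in 2 alternatives, at an adjusted p of 0.00195 without the low-count filter and 0.0071 with classes taken from clusters. No fit without that library has a residual degree of freedom.

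Dkk3 ratios were 0.43 at E13.5 (interval 0.30 to 0.57) and 0.69 at E14.5 (interval 0.41 to 0.98) in valve mesenchyme-like cells. In mural-like cells, the other class with high Dkk3, they were 0.42 at E13.5 (interval 0.21 to 0.63) and 0.82 at E14.5 (interval 0.08 to 1.62). The edgeR values were log2 0.57 with SE 0.17, adjusted p 0.9998 and log2 0.58 with SE 0.25, adjusted p 0.9998. Of the members, 2 of 20 met the rule upward in valve mesenchyme-like cells and 2 of 14 in mural-like cells, Sfrp2 and Dkk3 in both. Mural markers stood at 8533, 7864, 6224 and 6623 CPM in the mural-like class, which had 288, 352, 97 and 85 cells, so the E14.5 ratios there are the less precise ones.

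In cardiomyocyte-like cells, the class with the most UMIs, Fzd2 was lower and Fzd8 higher in the Lats1/2 CKO by the counting intervals. Fzd2 stood at 119, 82.7, 106 and 76.1 CPM, with ratios of -0.53 at E13.5 (interval -0.70 to -0.36) and -0.48 at E14.5 (interval -0.68 to -0.28). Fzd8 stood at 4.44, 9.07, 4.63 and 9.02 CPM, with ratios of 1.01 at E13.5 (interval 0.30 to 1.82) and 0.94 at E14.5 (interval 0.16 to 1.80), where 2.84% of all genes met the rule upward. Both control libraries lay above both Lats1/2 CKO libraries for Fzd2 and below them for Fzd8. The edgeR values were log2 -0.48 with SE 0.13, adjusted p 0.9899 for Fzd2 and log2 1.01 with SE 0.32, adjusted p 0.9899 for Fzd8.

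**Figure D5:**
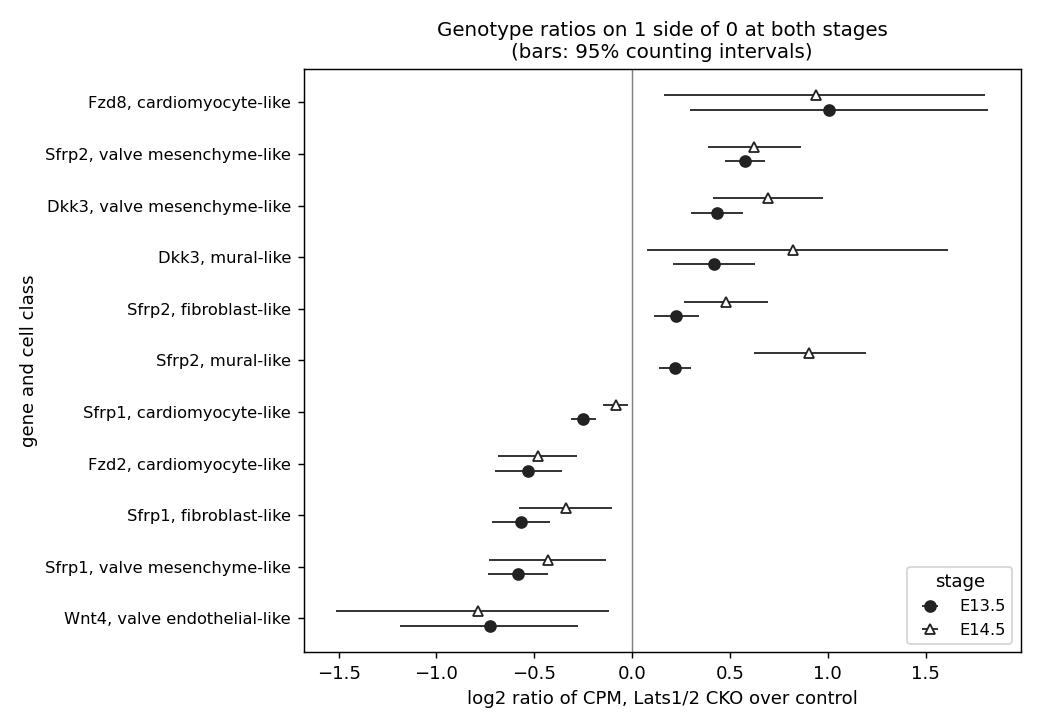
Log2 ratio of Lats1/2 CKO to control CPM for the 11 member and class pairs in single classes whose 95% exact counting intervals (bars) left out 0 on the same side at both stages, with circles for E13.5 and open triangles for E14.5. Sfrp1, Wnt4 and Fzd2 lie below 0 and Sfrp2, Dkk3 and Fzd8 above it, and none of these pairs passed the adjusted edgeR test.

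The remaining members did not meet the interval rule in any class. In epicardial-like cells the Rspo1 ratios were -0.60 at E13.5 (interval -1.08 to -0.13) and -0.32 at E14.5 (interval -0.87 to 0.27). Those of Wnt9a were -0.16 at E13.5 (interval -0.92 to 0.66) and 0.0 at E14.5 (interval -1.08 to 1.33), and those of Wnt5a 0.14 at E13.5 (interval -0.46 to 0.78) and -0.14 at E14.5 (interval -0.84 to 0.63). For each of these 3 epicardial genes at least 1 stage had an interval that held 0. Lef1 ratios in valve mesenchyme-like cells were -0.11 at E13.5 (interval -0.35 to 0.14) and 0.21 at E14.5 (interval -0.25 to 0.67), and those of Axin2 -0.07 at E13.5 (interval -0.53 to 0.39) and -0.62 at E14.5 (interval -1.58 to 0.26). For Rspo3 in the same cells they were -0.13 at E13.5 (interval -0.40 to 0.14) and -0.17 at E14.5 (interval -0.69 to 0.33). In the other pathway lists, 0 genes passed the adjusted genotype test in any class.

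The third comparison was between stages, E14.5 against E13.5, in which stage and depth cannot be told apart. Again 0 of 115 member and class tests passed (edgeR, lowest adjusted p 0.0757), against 0.899% of all gene and class tests. At an unadjusted p below 0.05 there were 12 (4 higher and 8 lower at E14.5), or 10.4% against 10.8% over all tests, and DESeq2 gave 0 passing and 4 at an unadjusted p below 0.05. The members' share was near that of all genes.

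The lowest adjusted p belonged to Sfrp1 in coronary endothelial-like cells, at 27.7, 17.6, 76.5 and 48.8 CPM (log2 1.53 with SE 0.41, adjusted p 0.0757), and with cells of at least 1000 UMIs it passed (log2 1.65, adjusted p 0.0352). Sfrp1 stood at 17.3, 18.3, 43.8 and 47.4 CPM in endocardial-like and 12.6, 33, 50.6 and 52.6 CPM in valve endothelial-like cells, so all 3 endothelial classes were higher at E14.5 in the means of their libraries. Cardiomyocyte markers, from the class with abundant Sfrp1, summed to 522, 1026, 2379 and 2088 CPM in coronary endothelial-like cells, 958, 1563, 3706 and 3443 in endocardial-like and 733, 1640.2, 3267 and 4054 in valve endothelial-like cells. They too were higher at E14.5, and their part in the Sfrp1 difference was not tested. Sfrp2 was lower at E14.5 at an unadjusted p below 0.05 in epicardial-like (log2 -1.24 with SE 0.34, adjusted p 0.187), fibroblast-like (log2 -0.72 with SE 0.20, adjusted p 0.211), valve mesenchyme-like (log2 -0.47 with SE 0.17, adjusted p 0.341) and mural-like cells (log2 -0.71 with SE 0.26, adjusted p 0.342), without passing the adjusted test.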

How the data were processed

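The deposited values were UMI counts per gene and cell, not normalized. Per the submitters' processing notes the authors used STAR, Picard and mm10, and per the labels' protocols libraries were made with Nextera XT; versions are not given in the sources used here. Kept cells (21485 of 24849) had 500 or more UMIs, 300 or more genes and a mitochondrial share of 20% or less. The doublet caller marked only 10 cells, so doublets were in effect not removed. Cells were gated by a Poisson likelihood over 114 marker genes with a posterior of at least 0.95, and class sums per library were tested with edgeR 4.0.16 (DESeq2 1.42.0 as an alternative) in R 4.3.3, with Benjamini-Hochberg adjustment over all genes. Clusters came from scanpy 1.11.5. The tests were checked on simulated counts with known changes. Members, pathway lists and markers were chosen with earlier results of these data known. Genes were named where the level in the leading class reached 50 CPM or its contrast passed, and for genotype where both counting intervals left out 0. Gene positions are from GENCODE M21 (GRCm38). Stages follow the sample labels (E13.5, E14.5). Erythroid-like, unassigned and background cells were not compared.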

Additional observations from a re-analysis of the deposited data

Results flagged for a closer look

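In 4 of 151 member and class pairs the genotype ratios of the 2 stages lay on opposite sides of 0 with both 95% counting intervals leaving out 0, as in 2.41% of all gene and class pairs. Whether the stages differ was not tested, since each ratio rests on 1 library per genotype. In the pooled epicardial-like and fibroblast-like cells, Rspo1 stood at 68.1, 45.1, 64.2 and 101 CPM, with log2 ratios of -0.60 at E13.5 (interval -1.06 to -0.12) and 0.65 at E14.5 (interval 0.11 to 1.23). Wnt11 stood there at 104, 71.8, 33.7 and 66.1 CPM, with ratios of -0.54 at E13.5 (interval -0.91 to -0.16) and 0.95 at E14.5 (interval 0.23 to 1.76). Sfrp2 stood there at 1046, 1205, 618 and 499.9 CPM, with ratios of 0.20 at E13.5 (interval 0.10 to 0.31) and -0.31 at E14.5 (interval -0.50 to -0.11). The epicardial-like share of that pool was 29.0%, 31.6%, 22.5% and 44.0%, and its part in these ratios was not tested. In epicardial-like cells alone, Rspo1 ratios were -0.60 at E13.5 (interval -1.08 to -0.13) and -0.32 at E14.5 (interval -0.87 to 0.27), so the E14.5 ratio lay on the other side of 0 there. In cardiomyocyte-like cells Sfrp2 stood at 22.9, 34.97, 20.9 and 14.47 CPM, with ratios of 0.61 at E13.5 (interval 0.28 to 0.96) and -0.52 at E14.5 (interval -1.0 to -0.06), levels far below those of the mural-like class.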

How the results depend on the processing

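Each of the 24 tested members kept the direction of its leading-class contrast under every alternative in which it was tested (edgeR without the low-count filter, DESeq2 and its size factors, cells of at least 1000 UMIs, cluster-based classes, a stricter gate chosen after seeing the data, and each library left out), and all but Lrp6 stayed past the threshold. The main count of leading classes past the threshold was 24, and it ran from 22 to 25 when libraries were left out. The genotype count of 0 became 1 without the low-count filter and 1 with cluster-based classes, and the stage count of 0 became 1 with cells of at least 1000 UMIs. The leading class moved for Dkk3, Fzd2, Fzd7, Sfrp1 and Wnt11 with cluster-based classes and for Fzd9, Lrp5, Lrp6 and Wnt5a with the stricter gate. With cluster-based classes mural-like means became 193 CPM for Fzd1, 3589 for Sfrp2 and 188 for Wnt5a, and with the stricter gate Fzd10 in valve endothelial-like cells became 28.8 CPM; the cause was not tested. Shares of cells without thinning moved for 30 of 31 members. No paired analysis was possible because the labels give no replicate numbers and each genotype and stage has 1 library; the library block of the class contrasts and the stage term of the genotype fits are part of the design. The genotype and stage fits without a library have no residual degree of freedom and were not run. At class sums this small, levels of a few CPM rest on single UMIs.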
